A study of Mus musculus with 2 samples.

Results

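The genes described here are those of the mineralising matrix that osteocytes and their precursors secrete, measured in mouse fetal palate. They comprise the family of SIBLING proteins (small integrin-binding ligand N-linked glycoproteins) and other products of bone-embedded cells. Of 10 genes named for the set, 7 had a probe set that the platform annotation assigned to them alone: Dmp1, Mepe, Ibsp, Dspp, Phex, Sost and Pdpn. They had 12 probe sets, of 34945 probe sets with 1 gene and 18193 genes in all. Spp1 and Enpp1, and the name Fgf23bp, had no listed probe set and were not analysed here. The palate came from BALB/c fetuses at E18.5 (embryonic day). One sample was wild type, and the other was labelled BALB/c Myf5:Myod null, a double null for the transcription factors that commit cells to skeletal muscle. The series asks what skeletal muscle contributes to palate development. Each genotype had 1 array, so all differences are between 2 arrays, there is no replicate check, and no p-value is given. Neither the number of fetuses per sample nor the design of the null alleles is stated in the labels.

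SIBLING proteins are acidic, phosphorylated glycoproteins that bind collagen, calcium and cell-surface integrins, and their genes sit side by side on one chromosome. Osteoblasts secrete the first of them as matrix begins to mineralise. Cells that become enclosed in that matrix turn into osteocytes and add proteins that adjust mineral growth, phosphate balance and Wnt signalling. At this age the palate holds intramembranous bone, and the developing teeth beside it contain odontoblasts, which make a related set of proteins in dentine.

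The sequences just upstream of the transcription start are shown for the members whose signals differed most between the arrays (Mepe, Sost and Dmp1), with Ibsp, which barely differed, for comparison. They are taken from RefSeq with build GRCm38.p6, and each is the 250 bases before a start, written 5′ to 3′ on the gene's strand. Dmp1 has a pair of annotated starts and both windows are given. Capitals mark the CCAAT box and the TATA-like letters TATAAA or the variant TTTAAA on either strand. On the reverse strand the CCAAT box reads ATTGG.
Mepe (chr5:104325079-104325328, plus strand): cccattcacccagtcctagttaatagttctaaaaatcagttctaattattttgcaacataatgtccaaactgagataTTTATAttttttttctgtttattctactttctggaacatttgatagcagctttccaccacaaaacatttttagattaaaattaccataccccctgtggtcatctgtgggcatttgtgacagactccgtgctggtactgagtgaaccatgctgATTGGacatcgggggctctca
Sost (chr11:101967016-101967265, minus strand): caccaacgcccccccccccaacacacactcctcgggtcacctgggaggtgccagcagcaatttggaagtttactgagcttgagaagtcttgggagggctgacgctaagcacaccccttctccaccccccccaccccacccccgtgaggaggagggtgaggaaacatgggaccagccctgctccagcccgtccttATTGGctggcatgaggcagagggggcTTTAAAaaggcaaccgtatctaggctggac
Dmp1, first start (chr5:104197325-104197574, plus strand): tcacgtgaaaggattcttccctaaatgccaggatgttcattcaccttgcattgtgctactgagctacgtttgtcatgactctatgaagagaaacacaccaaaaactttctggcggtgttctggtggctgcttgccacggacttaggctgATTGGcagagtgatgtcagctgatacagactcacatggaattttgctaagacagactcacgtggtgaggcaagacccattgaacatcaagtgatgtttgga
Dmp1, second start (chr5:104202367-104202616, plus strand): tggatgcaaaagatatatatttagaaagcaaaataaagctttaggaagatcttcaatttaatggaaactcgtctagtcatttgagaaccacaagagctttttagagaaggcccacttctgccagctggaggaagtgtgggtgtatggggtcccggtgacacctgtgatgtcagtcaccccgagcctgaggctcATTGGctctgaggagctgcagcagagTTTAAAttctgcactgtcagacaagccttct
Ibsp (chr5:104299037-104299286, plus strand): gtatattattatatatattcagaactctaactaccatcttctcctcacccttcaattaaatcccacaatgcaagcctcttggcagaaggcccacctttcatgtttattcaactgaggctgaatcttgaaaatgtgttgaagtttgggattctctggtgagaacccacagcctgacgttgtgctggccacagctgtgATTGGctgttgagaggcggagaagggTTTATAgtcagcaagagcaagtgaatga

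All 5 windows held 1 CCAAT match, in each case read as ATTGG. It began 54 bases before the start of Ibsp, 56 before that of Sost, 57 before the second and 101 before the first start of Dmp1, and 21 before that of Mepe. Of 32851 annotated upstream windows of the same length, 33.8% held this motif. The TTTAAA of Sost began 30 bases and that of the second Dmp1 window 31 bases before the start, and 12.1% of all windows held that motif. TATAAA, found in 12.4% of windows, lay 28 bases before the Ibsp start and 173 bases before that of Mepe, in both on the reverse strand (TTTATA). The E-box letters CANNTG, which basic helix-loop-helix factors recognise, occurred in 66.2% of all windows. Mepe and Ibsp had 3 matches each, Sost 1, and the Dmp1 windows 5 and 3. ACCACA, the core of the Runx motif, had 2 matches in the Mepe window and 1 in the second Dmp1 window, and occurred in 14.0% of all windows. TGANTCA, the AP-1 motif, was in none of the 5 and in 6.75% of all windows. All motifs were searched on both strands, and matches of different motifs did not overlap in these windows. The CCAAT letters were thus present upstream of Ibsp as of the 3 lower genes, but not of every member. The window of Phex (log2 ratio 0.05), which also barely differed, held 0 matches. So did those of Pdpn and Enpp1 and the second of Spp1, while the first of Spp1 held 1. These windows are not printed here. These matches describe sequence and do not show binding.

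Signals are MAS5 intensities rescaled between the arrays, in arbitrary units. Values under a floor of 287, the 40th percentile of all values, were raised to it before ratios were taken. A gene counted as measured where its brightest probe set reached 658, the 60th percentile, on at least 1 array. All 7 genes were measured, through 10 of their 12 probe sets. In each log2 ratio the wild-type signal is the denominator, so negative values are lower on the array labelled double null. Mepe, Sost and Dmp1 were at least 2-fold lower on the array labelled double null. No member was at least 2-fold higher, and Dspp, Pdpn, Phex and Ibsp lay within 2-fold. Over all 11238 measured genes, the share past 2-fold was 4.22% in the lower and 3.51% in the higher direction. Of the 7921 whose brighter array reached the 75th percentile (1479), 3.07% were past 2-fold on the lower and 2.99% on the higher side. These include 6 members (all but Sost), of which Mepe and Dmp1 were past 2-fold. The median log2 ratio of the 7 members was -0.91, against 0.07 over all measured genes. With so few members this median is the value of Dspp and describes these arrays only. In bulk tissue, fewer cells of a type and less RNA per cell cannot be told apart.

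**Figure D1:**
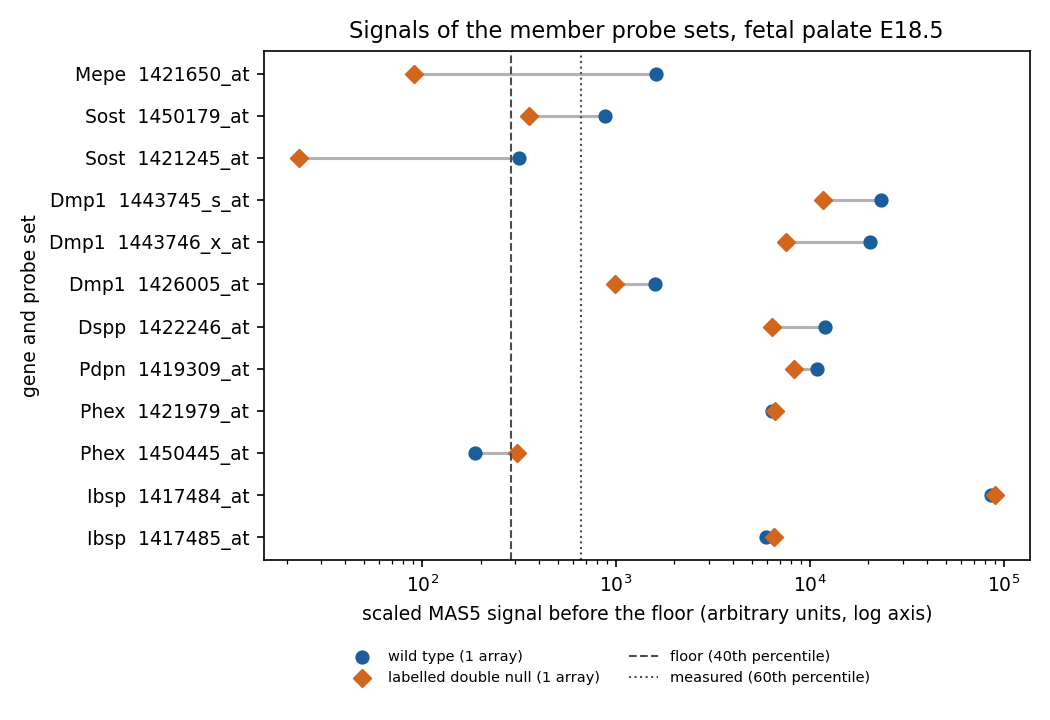
Scaled MAS5 signal before the floor (log axis, arbitrary units) of each of the 12 member probe sets on the wild-type array (circles) and on the array labelled double null (diamonds), with lines at the floor of 287 and the measured level of 658. The Mepe signals of 1615 and 90.8 lie on opposite sides of both lines, whereas both Ibsp probe sets and the brighter Phex probe set nearly coincide.

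Mepe had the lowest ratio of the set. It encodes matrix extracellular phosphoglycoprotein, an osteocyte product whose acidic carboxy-terminal peptide inhibits mineral growth. Its only probe set gave 1615 in wild type against 90.8 on the array labelled double null, the latter under the floor. The gene was thus at least 5.63-fold lower, a bound that the floor sets. Without any floor the log2 ratio was -4.15, a value that rests on a signal under the floor. No second probe set was listed for Mepe, so this difference has no internal check.

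Sost encodes sclerostin, the Wnt antagonist released by mature osteocytes. Its measured probe set gave 872 in wild type against 356 on the other array, a 2.45-fold lower signal (log2 ratio -1.29). Both signals were dim, and the second Sost probe set, at 317 and 23.1, did not reach the measured level on either array. The wild-type array was the higher in both probe sets, which were designed from the same source sequence. With the floor raised to the 60th percentile the Sost ratio shrank to -0.40. The 5 measured genes closest to Sost in log2 signal over the 2 arrays were Vax1, Gkn3, Tcea2, Adcyap1r1 and Vps52, at Euclidean distances of 0.035 to 0.049. Likeness over 2 arrays describes a pair of levels and nothing more.

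Dmp1 was lower in all 3 of its probe sets. It encodes dentin matrix protein 1, a mineral-nucleating phosphoprotein that is abundant around osteocytes and whose loss causes a phosphate-wasting rickets. The brightest probe set, which represents the gene, gave 23284 and 11604, which is 2.01-fold lower. The next gave 20271 and 7546, a log2 ratio of -1.43. The dimmest gave 1582 and 983, a log2 ratio of -0.69. The mean log2 ratio over them was -1.04 ± 0.37 (SD, n = 3 probe sets on the same pair of arrays, not animals). The first 2 of these were designed from the same source sequence and carry suffixes for possible cross-hybridisation, while the third, with neither property, was within 2-fold. Dmp1 passed the 2-fold rule narrowly, and 4.18% of measured genes had a lower ratio.

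Dspp, the dentin sialophosphoprotein gene, gave 11895 in wild type against 6347 on the other array. Its log2 ratio was -0.91, within 2-fold by a small margin, and it passed 2-fold under 3 of 12 other settings. Odontoblasts are its main source. Of 12 measured odontoblast and ameloblast genes, 1 was past 2-fold lower (Nes) and 1 higher (Amtn, an enamel surface protein gene, at 1.03), with a median of 0.24. This list includes many enamel genes, so its median does not describe odontoblasts alone. The enamel genes Amelx (56761 and 62843) and Ambn (65540 and 79720), made by ameloblasts of the same tooth germs, had log2 ratios of 0.15 and 0.28, and Enam, a further enamel gene, had -0.21. Nes, nestin, which odontoblasts, muscle fibres and nerves all express, was 3.03-fold lower, and its other probe set had a log2 ratio of -1.90.

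Ibsp barely differed. It encodes bone sialoprotein, which osteoblasts secrete at the onset of mineralisation and which carries an integrin-binding site. Its probe sets gave 86107 and 89889 (log2 ratio 0.06) and 5947 and 6509 (0.13). The first was at the 99.8th percentile of probe sets on both arrays. Among the 4 measured SIBLING genes, the ratio of Mepe was at least 5.88-fold below that of Ibsp, that of Dmp1 2.09-fold and that of Dspp 1.96-fold. A comparison of ratios within these arrays is not changed by a common scaling factor, although that of Mepe depends on the floor.

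**Figure D2:**
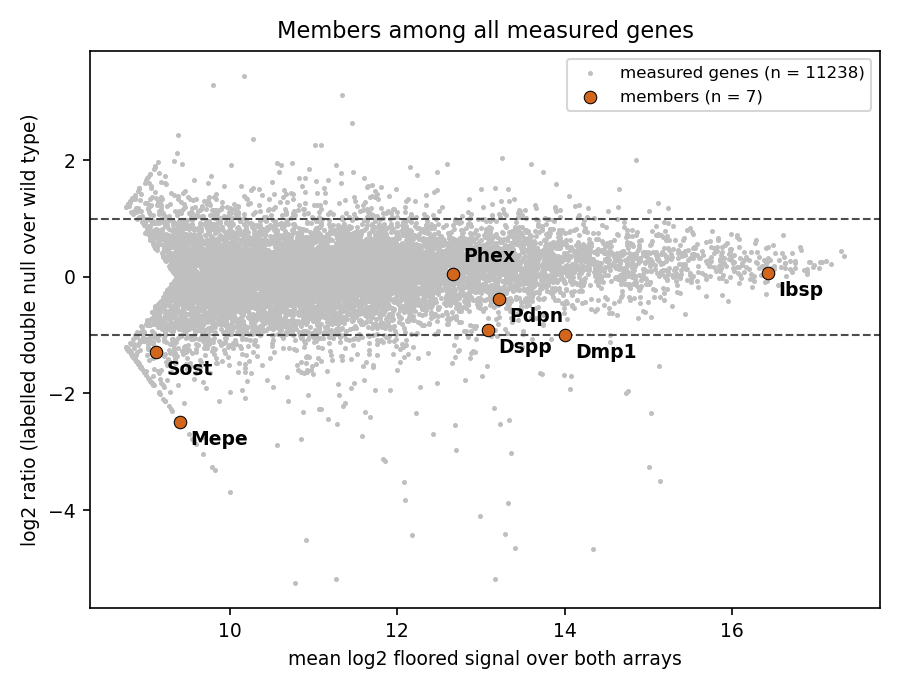
Log2 ratio (array labelled double null over wild type) against the mean log2 floored signal of all 11238 measured genes (grey), with the 7 members in orange and dashed lines at 2-fold. Mepe lies on the diagonal edge that the floor sets, Dmp1 and Dspp lie at the lower margin of the cloud among bright genes, and Ibsp and Phex lie close to 0.

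Phex encodes the X-linked endopeptidase of osteoblasts and osteocytes whose loss raises the phosphate-wasting hormone Fgf23. Its measured probe set gave 6400 and 6609, a log2 ratio of 0.05. The other, designed from the same source sequence, gave 188 and 309.9, below the measured level on both arrays. The arrays differed in sex-linked transcripts: Xist, from the inactive X chromosome, had 33813 and 16947, and Eif2s3y, on the Y chromosome, had 10.8 and 2794. Phex lies on the X chromosome, and the part of sex in its ratio was not tested.

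Pdpn encodes podoplanin, also called E11, a membrane glycoprotein of newly embedded osteocytes that lymphatic endothelium and basal epithelium also express. Its probe set gave 10855 and 8308, a log2 ratio of -0.39. Probe sets of the same gene differed among themselves with a pooled SD of 0.51 (log2, 4030 genes), and Pdpn lay within it. Ibsp and Phex lay within that SD too, and Dspp, Dmp1, Sost and Mepe outside it. Lying outside it was common and does not by itself set a member apart. A 1.5-fold change, which is wider than this SD, was passed by 1320 of 11238 measured genes downward and by 1486 upward. Dspp was the nearest to 0 of the members outside the SD, and 90.1% of measured genes lay within its distance of 0. That SD covers probe effects and not differences between fetuses. Of 6 measured lymphatic endothelium markers, Pecam1, which all endothelium shares, was at least 2.66-fold lower. Ratios were below 0 in 4 of the 6, with a median of -0.19. Over all measured genes 43.7% had ratios below 0. Flt4 had -0.18 and Cdh5 -0.37, Lyve1 had 0.16 but -0.43 in its other probe set, and Prox1 was under the floor on both arrays. The summed signal of the listed lymphatic markers was 14532.5 and 13932.6. Its largest terms were Nrp2 (7076 and 7815) and Sema3a (4089 and 3549), so the sum says little about Lyve1, Prox1 or Flt4. The part of lymphatic endothelium in the Pdpn ratio was not tested. Of 9 measured stratified epithelium markers, 4 were past 2-fold lower and 8 had ratios below 0, and their part was not tested either.

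The SIBLING genes are neighbours in the RefSeq table of GRCm38.p6, in the order Dspp, Dmp1, Ibsp, Mepe and Spp1, with no other protein-coding gene between them. Along this run the log2 ratios were -0.91 for Dspp, -1.04 for Dmp1 (mean of 3 probe sets), 0.06 for Ibsp and -2.49 for Mepe. Ibsp thus lay nearer to 0 than Dmp1 and Mepe, the genes on either side of it. Sparcl1, the matricellular gene next to Dspp, had 4116 and 3669, a log2 ratio of -0.17. Beyond Spp1, Thoc2l was below the measured level (305 and 32.0). Pkd2, and Gm17660 at the other end, had no listed probe set.

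Receptors of the SIBLING proteins were within 2-fold. Of 10 listed, 8 were measured, with none past 2-fold and a median log2 ratio of 0.08. Itgav, the integrin alpha chain that binds their arginine-glycine-aspartate site, gave 22807 and 24833. Its partner Itgb3 gave 3678 and 3757, and Cd44, a receptor for hyaluronan and osteopontin, gave 9783 and 10553. Itgb1, the common beta chain, had the highest ratio of the group at 0.66, and its other probe sets had a median of 0.64. Itga4 had the lowest, at -0.59.

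Among 10 measured enzymes that phosphorylate or cleave these proteins, 1 lay past 2-fold in each direction, and the median was -0.01. Fam20c, the kinase that phosphorylates SIBLING proteins, gave 1426 and 1331, a log2 ratio of -0.10, and -0.59 in its other measured probe set. Bmp1, a protease that processes Dmp1 and Dspp, was just past 2-fold lower (2438 and 1217). Tll1, its relative, was at least 3.68-fold higher (264, under the floor, and 1056). Mmp20, an enamel protease that can also cleave Dspp, had a log2 ratio of 0.34, and Mmp14 had -0.30, with a median of -0.79 in its other 2 probe sets.

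Genes listed for phosphate and pyrophosphate handling lay within 2-fold in the brightest probe set of all 14 measured genes, with a median of 0.05. Alpl, the alkaline phosphatase that frees phosphate for mineral, gave 1665 and 1358, a log2 ratio of -0.29. Ank, the pyrophosphate exporter, had 0.21 and the phosphate transporter Slc20a1 0.14. Fgfr1, a receptor for Fgf23, had the lowest ratio, -0.95, and -0.25 in its other probe set. Slc10a7, whose own part in phosphate handling was not examined here, had the highest, 0.51, and its other probe set was past 2-fold higher at 1.35. The phosphate transporter Slc20a2 had -0.07, whereas its other probe set was also past 2-fold higher, at 1.27. Fgf23 itself, at 367 and 347, was below the measured level on both arrays. Sclerostin's receptors and other Wnt partners included 6 measured genes, none past 2-fold. Lrp6 had a log2 ratio of 0.04, Sfrp4 -0.79 and Lgr4 0.60, and Lrp5 was under the floor on both arrays.

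Other genes enriched in osteocytes lay within 2-fold in their brightest probe sets. Of 20 listed, 16 were measured, none passed 2-fold in either direction, and the median was 0.12. Capg, an actin-capping protein, had the lowest ratio at -0.71, with 0.02 in its other probe set. Other probe sets, by their median, were lower than the brightest for Mmp14 (-0.79), Dkk1 (-0.73), Tsc22d3 (-0.66), Fam20c (-0.59), Hyou1 (-0.50) and Sostdc1 (-0.33). They were higher than the brightest for Cd44, Ptprz1 and Gja1, as for Capg. Gja1, the gap junction protein connexin 43 that links osteocytes, gave 74091 and 87851, and Tnfsf11, the osteoclast-inducing ligand RANKL, 901 and 713. Many of these genes are also expressed by other cells of the palate.

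Osteoblast genes had a median of 0.05 over 19 measured members, with 2 past 2-fold on the lower side and none on the higher. The lower ones were Msx2, a homeobox gene (3.76-fold, although its other probe set gave a log2 ratio of -0.31), and Creb3l1, a transcription factor of collagen secretion (2.11-fold). Sp7, the transcription factor osterix, gave 4201 and 3064, a log2 ratio of -0.46. Col1a1, the main bone collagen, was higher, at 36646 and 61076 (0.74), and 1.20 in its other probe set. Ifitm5, made by mineralising osteoblasts, had 0.33. The summed signal of the listed osteoblast genes was 405320 in wild type against 454626 on the other array. Its largest term was the collagen gene Col1a2 (123685 and 147333). Col1a1 and Col1a2 make up most of the rise, so the sum follows bright collagen genes rather than the list as a whole. The medians of the receptor, phosphate, Wnt partner, other osteocyte-enriched and osteoblast lists all changed sign under at least 1 other scaling, so their directions are not settled. Fgfr1 was past 2-fold lower under 3 of 4 other scalings. Runx2 and Bglap had no listed probe set and were not analysed here.

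**Figure D3:**
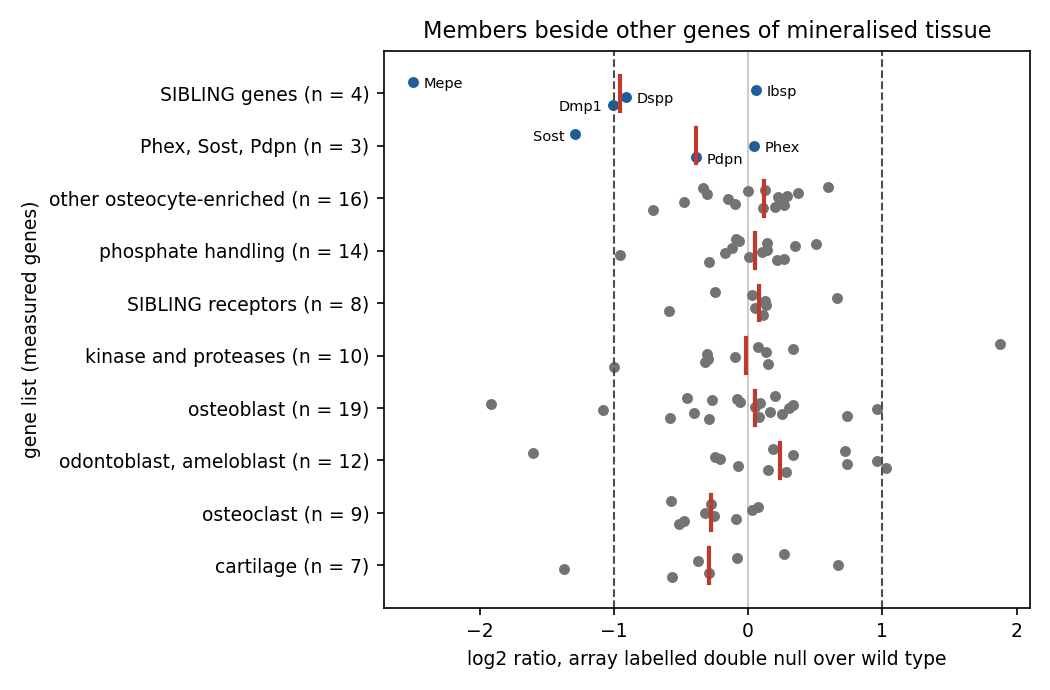
Log2 ratio (array labelled double null over wild type) of each measured gene in the member groups (blue, named) and in related lists (grey), with the list median in red and dashed lines at 2-fold. Mepe, Sost and Dmp1 lie at or beyond the lower line, and the receptor, phosphate and other osteocyte-enriched genes all lie between the lines.

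Markers of other tissues differed between the arrays beside these values. Summed signals given here are over all listed genes of a list, including those below the measured level. Past 2-fold on the lower side were 5 of 10 measured skeletal muscle markers (summed signal 162303 and 86726), among them Tnnc2 at 3.23-fold. So were 4 of 9 stratified epithelium markers (111029 and 62110), whereas 5 of 7 neuron markers were past it on the higher side (37940 and 95394). None of 9 measured osteoclast markers passed 2-fold, with a median of -0.28 and sums of 129943 and 110910. Of 7 measured cartilage markers only Col11a2 was past 2-fold (2.59-fold lower; sums 25486 and 22353), and Col10a1, which marks hypertrophic cartilage, was under the floor on both arrays. Among 8 measured macrophage markers Cd14 was 2.20-fold higher and C1qa at least 2.94-fold lower (sums 45615 and 40150). C1qb, of the same list, had a log2 ratio of 0.13, and -0.01 in its other probe set. The part of tissue composition in the member ratios was not tested. Of the targeted genes, Myod1 gave 1938 and 1663 in its measured probe set, and Myf5 gave 517 and 531, below the measured level on both arrays. Whether these probe sets lie in a removed part of either gene is unstated, so these values do not settle the label. All 10 measured skeletal muscle markers had ratios below 0, yet several stayed far above the measured level on both arrays. Acta1 gave 38283 and 23430, Myh3 25860 and 17251, and Mylpf 24660 and 16804, all within 2-fold. What this says about the label was not tested.

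**Figure D4:**
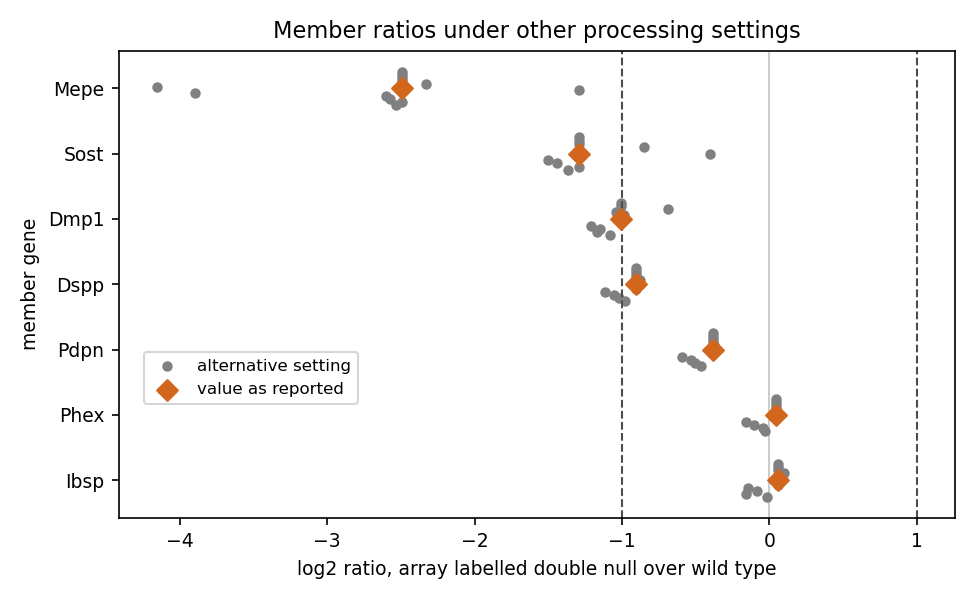
Log2 ratio (array labelled double null over wild type) of each member as reported (diamonds) and under each of the other processing settings (grey points), with dashed lines at 2-fold. Mepe stays beyond 2-fold in all 12 settings, Dmp1 and Dspp straddle the line, and Ibsp and Phex lie on both sides of 0.

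The calls were compared across processing settings, several of which could not move a given member. Mepe was at least 2-fold lower under all 12 other settings, Dmp1 under 10 of 12 and Sost under 9 of 11. Ibsp and Phex changed sign with the scaling, each being below 0 in 4 of 12. Scaling on the median signal of reference genes moved the median of all genes from 0.07 to -0.15. Relative to the median of all measured genes, the log2 ratio was -0.01 for Ibsp, -0.02 for Phex, -0.46 for Pdpn, -0.98 for Dspp and -1.08 for Dmp1.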

How the data were processed

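Each array held 45101 probe sets, 64 of them controls, which were left out. The deposited values were linear signal intensities that the authors made with MAS5 (per the submitters' processing notes), at equal trimmed means (1500.01 on both arrays). Detection calls were not used here, and the files name no genome build. The platform annotation gave probe sets their genes, with gene identifiers of 34741 found in the RefSeq table.

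Each array was scaled on the median of probe sets in the upper part of both arrays, from the 50th percentile up (factors 0.974 for wild type and 1.03 for the other), floored at the 40th percentile and converted to log2. A gene was its probe set of highest mean log2 signal. Genes were called at 2-fold, since 1 array per genotype allows no test. The number of arrays limits the precision.

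The members, lists and rules were chosen with earlier results of these data known. Named genes were all members and their chromosome neighbours, the targeted genes, fixed bone and receptor genes, and list members with large ratios; genes outside that rule, such as Amelx, Ambn, Enam, Slc20a2 and Gja1, were added after their values were seen. Alternatives covered scaling, floor, probe set, filter and fold. The steps were tested on simulated data. Analyses used Python 3.11.15, numpy 2.4.6, pandas 2.3.3 and matplotlib 3.10.9.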

Additional observations from a re-analysis of the deposited data

How the results depend on the processing

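With 1 array per genotype no replicate could be left out, and differences between fetuses or dissections cannot be told apart from genotype. The count of members at least 2-fold lower, 3 of 7, became 1 (Mepe) with an offset in place of the floor and 1 (Mepe) under a 3-fold rule, and ran from 2 to 4 under the remaining settings. It was 4, with Dspp added, under quantile normalization and both scalings on reference genes. The lower count over all measured genes rose under the same settings, from 474 of 11238. It was 501 of 11237 under quantile normalization, 695 of 11265 when scaled on the median ratio of reference genes and 830 of 11282 on their median signal. No member was at least 2-fold higher under any of 14 settings. The members' median log2 ratio stayed below 0, from -1.11 to -0.40. Mepe had -3.90 with the floor at the 20th percentile, -1.29 at the 60th and -4.15 without one, because its signal on the array labelled double null lay under the floor. Leaving out probe sets with cross-hybridising suffixes took Dmp1 to -0.69. Of all genes past 2-fold, 54.6% were lower, against 65.0% as deposited, 74.7% when scaled on the median ratio of reference genes and 81.6% on their median signal, an alternative added after seeing the data. Over all measured genes the 2-fold rule gave 474 lower and 394 higher. These counts became 830 and 187 when scaled on the median signal of reference genes, 264 and 257 with the floor at the 60th percentile, 265 and 197 with an offset, 1320 and 1486 under a 1.5-fold rule, and 131 and 56 under a 3-fold rule. The higher count was 236 when scaled on the median ratio of reference genes, and the counts were 243 and 237 among genes at or above the 75th percentile. The scaling thus shifts every ratio, but not the gap between 2 members above the floor, except under quantile normalization. Dim signals limit Mepe and Sost most.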
